A study of Mus musculus with 6 samples.

Results

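The baseline DNA methylation of male mouse germ cells was described in the 3 libraries of the Control group, from 3 of the 6 libraries of a study of chronic social defeat stress. The measurements come from reduced representation bisulfite sequencing, which reads cytosines near fixed restriction sites. All 3 libraries are labelled as replicates 1 to 3 of male germ cells, with no further treatment named, and the labels give no strain, age, number of animals or way of isolating the cells. Whether each library came from its own animal is not stated, and the spread and p-values below measure only differences between these libraries, which may be technical. A cytosine was kept where it was listed in all 3 libraries, which held for 2289604 of the 2779516 cytosines listed in at least 1 of them (82.4%). After 3406 cytosines of extreme coverage were left out, 2286186 nuclear cytosines were used. The level of a cytosine is the percent of its reads that show C, and a level of a region is the mean over its cytosines, each weighted equally.

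Male germ cells carry a methylome built during fetal development, after the marks of the previous generation have been erased. Most of the genome is methylated at CpGs, while CpG islands at gene starts are kept free of methylation. A few imprint control regions differ by parent of origin: some are methylated in the egg and bare in sperm, and a few others are methylated in sperm. A further group of germ cell genes is silenced by promoter methylation in somatic cells and is unmethylated in the germ line.

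Promoters of 5 genes show the range of the data, with the 250 bases before the gene start on the gene's own strand, taken from RefSeq (GRCm38.p6). Capitals mark the CpGs that all 3 libraries listed on at least 1 strand. They were chosen after their values were seen. Ddx4, a germ cell RNA helicase, lies at chr13:112652311-112652560 on the minus strand, and Slc25a31, an ADP/ATP carrier of the testis, at chr3:40708621-40708870 on the plus strand. Hoxd11 (chr2:74682073-74682322) and Hoxd4 (chr2:74721728-74721977), both on the plus strand, belong to the same cluster of homeobox genes that pattern the body axis. Acta1, the actin of skeletal muscle, lies at chr8:123894776-123895025 on the minus strand.
Ddx4: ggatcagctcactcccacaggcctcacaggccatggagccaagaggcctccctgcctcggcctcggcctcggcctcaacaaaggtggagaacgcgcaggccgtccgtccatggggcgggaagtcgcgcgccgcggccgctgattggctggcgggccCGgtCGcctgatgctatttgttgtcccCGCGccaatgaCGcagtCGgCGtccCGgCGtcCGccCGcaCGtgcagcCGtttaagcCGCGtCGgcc
Slc25a31: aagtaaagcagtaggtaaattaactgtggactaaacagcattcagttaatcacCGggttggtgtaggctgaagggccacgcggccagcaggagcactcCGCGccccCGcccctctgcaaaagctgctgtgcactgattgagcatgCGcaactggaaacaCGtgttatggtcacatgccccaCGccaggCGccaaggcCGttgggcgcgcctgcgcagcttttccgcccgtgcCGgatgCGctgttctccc
Hoxd11: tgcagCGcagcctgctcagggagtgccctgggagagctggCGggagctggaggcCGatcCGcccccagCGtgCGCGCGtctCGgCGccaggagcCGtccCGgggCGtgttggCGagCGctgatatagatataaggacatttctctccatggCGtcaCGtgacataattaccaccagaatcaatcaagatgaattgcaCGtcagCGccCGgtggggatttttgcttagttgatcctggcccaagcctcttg
Hoxd4: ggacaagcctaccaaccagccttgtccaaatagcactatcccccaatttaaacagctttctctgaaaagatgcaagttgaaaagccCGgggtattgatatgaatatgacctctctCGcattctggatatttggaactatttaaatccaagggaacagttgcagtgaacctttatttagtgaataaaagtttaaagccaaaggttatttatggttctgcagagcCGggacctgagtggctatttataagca
Acta1: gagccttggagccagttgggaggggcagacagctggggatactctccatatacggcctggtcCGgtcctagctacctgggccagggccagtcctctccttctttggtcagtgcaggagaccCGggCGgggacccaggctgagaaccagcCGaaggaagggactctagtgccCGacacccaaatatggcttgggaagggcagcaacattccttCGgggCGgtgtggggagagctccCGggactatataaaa

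The Acta1 promoter was methylated and the Hoxd11 promoter was not. Over the 10 listed Acta1 cytosines outside the sequence CCGG, the level was 95.4%, 86.3% and 92.2% in replicates 1, 2 and 3 (91.3% ± 4.58, SD, n = 3). Over the 36 such Hoxd11 cytosines it was 7.07%, 5.50% and 7.50% (6.69% ± 1.06). The gap between Acta1 and Hoxd11 in every library is a description only, as the promoters were chosen after their values were seen. Hoxd4, with a CpG-low promoter like Acta1, had 2 listed cytosines outside CCGG, at 87.1%, 86.6% and 97.2%. Ddx4 had 28 such cytosines at 10.001%, 12.7% and 7.42% (10.03% ± 2.63).

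Within the unmethylated promoters shown, cytosines in CCGG read above their neighbours, at some CpGs on 1 strand only and at others on both. CCGG is the sequence that MspI cuts, the enzyme on which reduced representation libraries are usually built, although the labels name no enzyme. At the CCGG that lies 94 bases before the Ddx4 start, the cytosine on the gene strand read 6.52%, 12.0% and 2.86% in the 3 libraries. The cytosine of the same CpG on the opposite strand read 72.2%, 85.2% and 72.7%. No library overlapped between the strands. At the CpG 4 bases closer to the start, which is not in CCGG, the 2 strands read 8.42% ± 3.59 and 7.98% ± 4.67. Both strands were raised at the CCGG 42 bases before the Ddx4 start, at 29.2% ± 4.80 and 33.1% ± 9.72. So were those at the CCGG 43 bases before the Hoxd11 start, at 24.0% ± 7.41 and 23.2% ± 3.33. In Acta1, the 6 CCGG cytosines read 90.8% ± 1.1999, which is within the spread of the other cytosines.

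CCGG cytosines also read higher across the genome's promoters, which sets how the levels of unmethylated genes can be read. Of 239516 listed cytosines inside the 300-base RefSeq promoter sequences (250 bases before and 50 after the start), 44771 (18.7%) lay in CCGG. That sequence, which reads the same on both strands, is found in 14460 of 27025 such promoters (53.5%). In CpG-rich promoters (GC content of at least 55% and an observed to expected CpG ratio of at least 0.75), CCGG cytosines read 38.5%, 39.3% and 38.5% in the 3 libraries (38.8% ± 0.463, 28182 cytosines). All other cytosines of these promoters read 7.68%, 7.94% and 7.63% (7.75% ± 0.167, 147644 cytosines). Sorted by the base on either side of the CpG, with a context and its reverse complement pooled, the other 9 contexts lay between 7.30% and 8.47%. The difference of 31.0 ± 0.302 points was seen in every library (30.8, 31.4 and 30.9). An exact two-sided paired permutation test over 3 libraries gave p = 0.25, the smallest it can give.

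Many but not all CCGG CpGs split by strand, and the level of CCGG cytosines fell with coverage. In CpG-rich promoters 42.4% ± 2.49 of the 12514 CCGG CpGs listed on both strands read above 80% on 1 strand and under 20% on the other, against 0.0149% ± 0.0124 of the 64926 other CpGs. The correlation between strands over these CpGs was -0.71 ± 0.018 for CCGG and 0.0820 ± 0.0136 for the others, as a description over CpGs that share libraries and fragments. CCGG cytosines with 10 to 19 reads read 77.0% ± 2.79, and those with at least 80 reads read 21.6% ± 0.235. The other cytosines moved from 8.996% ± 0.404 to 7.35% ± 0.276 over the same range. CCGG cytosines of 163 promoters whose other cytosines averaged above 80% read 93.2% ± 0.217, near the 91.7% of those others, while in 8213 promoters below 20% they read 37.8% ± 0.542 beside 8.205%. The cause was not tested. Outside these promoter sequences the bases around a cytosine were not analysed here, so levels of other regions include CCGG cytosines.

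**Figure D1:**
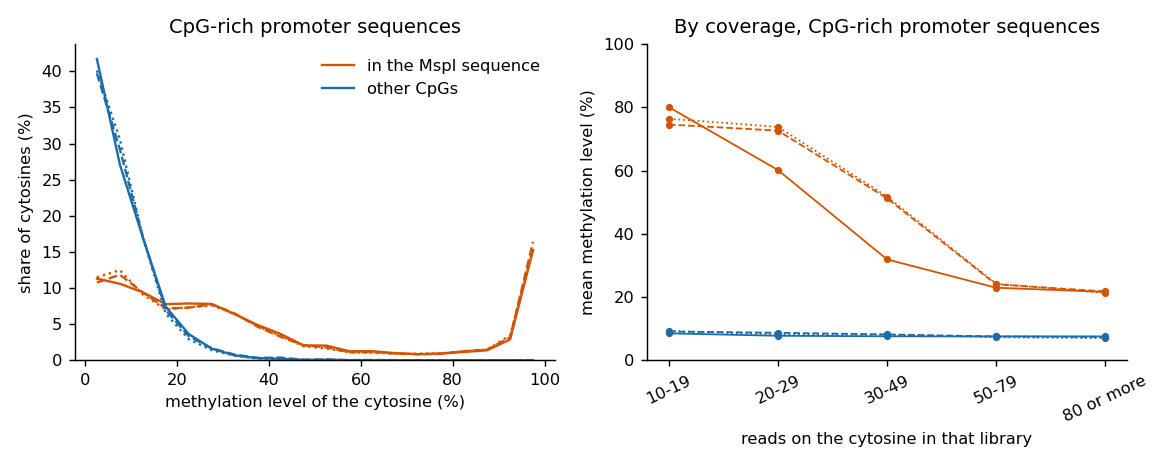
Left: share of cytosines (%) by methylation level in CpG-rich promoter sequences, for cytosines in CCGG (orange) and all others (blue). Right: mean level by the number of reads on the cytosine. Solid, dashed and dotted lines are replicates 1, 2 and 3. The CCGG cytosines read 77.0% on average at 10 to 19 reads and 21.6% at 80 reads or more, while the others stay between 7.35% and 8.996%.

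The genome as read here was split into unmethylated and highly methylated cytosines. The mean level was 44.3%, 44.5% and 44.2% in replicates 1, 2 and 3 (44.3% ± 0.139), and the median was 21.0% ± 0.545. Of all cytosines, 48.9% ± 0.413 read under 20%, 35.9% ± 0.0941 above 80% and 15.2% ± 0.440 in between. The 37 cytosines of mitochondrial DNA, which is usually taken as largely unmethylated, had a median of 8.90%, 8.81% and 9.72% read as C. The cytosines of CpG-rich promoters outside CCGG lay below that median in every library. Of the mitochondrial cytosines 3 read above 90% in every library, and their surrounding sequence was not analysed here. Correcting each level for the mitochondrial median lowered gene starts (within 1 kb of a start) from 16.1% to 7.68% ± 0.679, and regions dense in CpGs from 14.5% to 5.84% ± 0.681. Such a correction would make the mean of the CpG-rich promoter cytosines outside CCGG negative. Corrected levels here and below are thus an alternative reading, not a measured level.

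CpG density ordered the levels. Cytosines with at least 20 listed cytosines within 100 bp (CpG-dense, 1033680) read 14.5% ± 0.204, and those with at most 6 (CpG-poor, 528792) read 82.8% ± 0.208. The difference of -68.4 ± 0.317 points had the same sign in all 3 libraries (exact two-sided paired permutation test, p = 0.25, the smallest possible). Over 13 steps of density the mean level fell from 85.5% ± 0.208, with 1 or 2 cytosines listed within 100 bp, to 10.4% ± 0.0686, with 50 to 95. Each step lay below the one before it by more than the SD over libraries. Even in CpG-dense DNA, 4.57% ± 0.0951 of cytosines read above 80%, and in CpG-poor DNA 7.66% ± 0.124 read under 20%. The share of CCGG cytosines was not held along density. Inside promoter sequences, 3597 CCGG and 4779 other cytosines were listed in CpG-low promoters, against 28182 and 147644 in CpG-rich ones. How much of the density difference comes from CCGG cytosines was not tested.

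**Figure D2:**
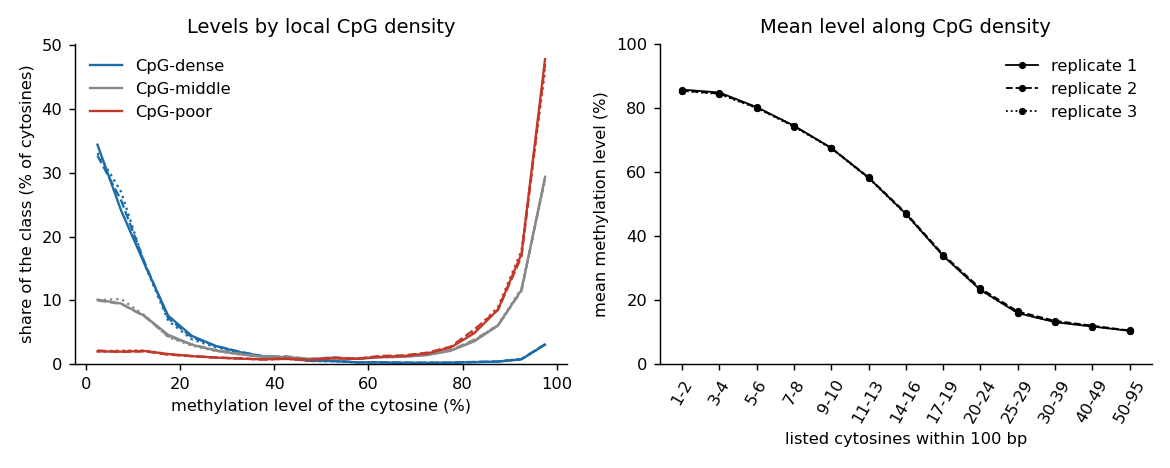
Left: share of the cytosines of each density class (%) by methylation level, in steps of 5 points. Right: mean level (%) by the number of listed cytosines within 100 bp. Solid, dashed and dotted lines are replicates 1, 2 and 3, which nearly coincide. The mean falls from 85.5% to 10.4% along density.

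Gene starts were the least methylated context. Within 1 kb of a RefSeq start, 887911 cytosines read 15.9982%, 16.4% and 15.9975% (16.1% ± 0.217), against 75.2% ± 0.170 for the 417144 intergenic cytosines and 68.9% ± 0.129 for the 676971 cytosines inside genes over 1 kb from their ends. Starts were lower than intergenic DNA by 59.1 ± 0.248 points in every library, and gene interiors were lower by 6.29 ± 0.0501 points (exact two-sided paired permutation tests, p = 0.25 each, the smallest possible). The contexts differ in CpG density. In CpG-poor DNA alone, with CCGG cytosines included, starts read 49.6% ± 0.182 and intergenic cytosines 83.5% ± 0.244. Gene interiors turned round there: they read 87.8% ± 0.205, or 4.39 points above intergenic DNA, in all 3 libraries. In CpG-dense DNA starts read 12.7% ± 0.194, gene interiors 20.7% ± 0.220 and intergenic cytosines 32.9% ± 0.296.

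Around the starts of protein-coding genes the level formed a trough whose depth followed the CpG class of the promoter. At CpG-rich promoters it was 71.6% ± 0.171 between 5 and 3 kb upstream and 14.2% ± 0.162 in the first 250 bases of the gene. Between 3 and 5 kb downstream it was 81.1% ± 0.161, higher than at the same distance upstream in each library. At CpG-low promoters (observed to expected CpG under 0.48) the floor was 35.7% ± 0.373, between 250 and 500 bases downstream, beside 72.3% ± 0.304 and 75.2% ± 0.120 at the same distances. The means are over those genes with listed cytosines in each step, so the genes differ from step to step.

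**Figure D3:**
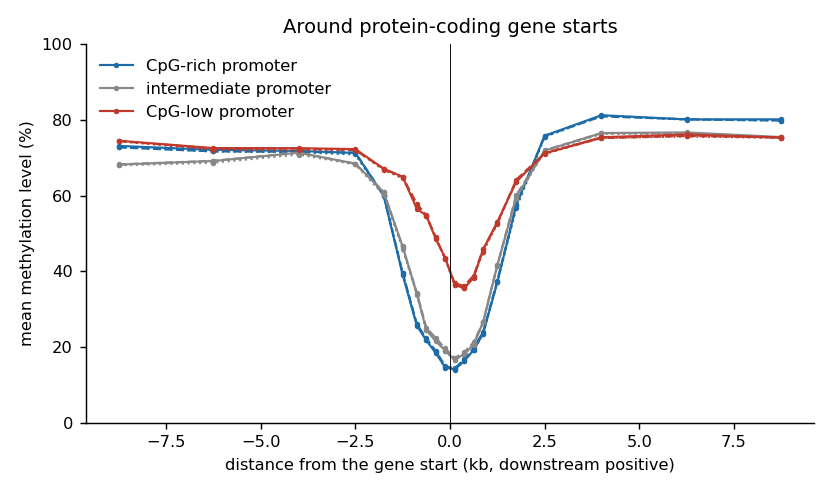
Mean methylation level (%) of cytosines by distance from protein-coding gene starts (kb), for CpG-rich, intermediate and CpG-low promoters. Solid, dashed and dotted lines are replicates 1, 2 and 3. CpG-rich promoters fall to 14.2% just after the start and CpG-low ones to 35.7%.

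Gene by gene, most of the measured promoters were unmethylated. Of 27025 genes with a promoter sequence, 14960 had at least 3 listed cytosines within 1 kb of a start, of which 9411 (62.9%) were under 20% in all 3 libraries and 1523 (10.2%) above 80%. Of 11599 protein-coding ones, 8121 (70%) were under 20% in all 3 libraries and 559 (4.82%) above 80%. The median was 15.1%, 15.6% and 15.2%. None of the 5329 with CpG-rich promoters was above 80%, and 4696 were under 20%. Of the 2143 with CpG-low promoters, 536 were above 80% and 612 under 20%. Those 2143 are 28.9% of the protein-coding genes with CpG-low promoters, while the 5329 are 98.0% of those with CpG-rich ones. Shares over all measured genes thus give CpG-rich promoters more weight than they have among all genes. Genes of long noncoding RNAs were methylated more often, with 1290 of 3361 (38.4%) under 20% and 964 (28.7%) above 80%. Their CpG-rich starts had a median of 13.9% ± 0.195, the same within the spread as the 13.9% ± 0.224 of protein-coding ones, while their CpG-low starts had a median of 81.5% ± 1.12 against 28.3% ± 0.609.

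Without the CCGG cytosines the promoter levels fell and tightened. The 300-base promoter sequences of 7516 protein-coding genes had at least 3 other listed cytosines. Of these, 4506 were CpG-rich and 435 CpG-low, out of 5436 and 7428 protein-coding genes of each class. Their median level was 14.01% ± 0.259 over all cytosines and 7.59% ± 0.150 without CCGG, and the middle 50% of these genes lay between 6.69% and 9.33%. In all 3 libraries 7082 (94.2%) were under 20% and 53 (0.705%) above 80%. The same genes with all cytosines gave 5551 and 60. All 53 promoters above 80% but 6 were CpG-low. This measure, chosen after the data were seen, is given beside the 1 kb windows below.

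Housekeeping genes read low but were not the lowest of the gene lists, which are read against all protein-coding genes. The lowest and highest genes named for a list are those with at least 10 cytosines in the window. Of 22 broadly expressed genes measured in 1 kb windows, 19 were under 20% in all 3 libraries (background 70%) and none above 80% (background 4.82%), with a median of 13.6%, 14.4% and 13.99%. Windows ranged from 5.93% ± 4.26 at B2m, the light chain of class I histocompatibility molecules, and 10.6% ± 0.571 at Vcp, an ATPase that extracts proteins for degradation, to 21.8% ± 2.85 at Ldha, the lactate dehydrogenase of muscle. In promoter sequences without CCGG, all 13 measured were under 20% (background 94.2%), with a median of 7.60% ± 0.592. The 29 ribosomal protein genes had a window median of 14.9% ± 0.348, with 24 under 20% (background 70%), and 8.60% ± 0.915 over 20 promoter sequences. Rpl22 (11.4% ± 1.02) and Rpl19 (11.8% ± 0.369) were lowest, and Rps9 (23.0% ± 0.400) highest. All are parts of the ribosome, and several have processed copies elsewhere in the genome to which reads could also align.

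Germline genes that are methylated in somatic cells read low to intermediate. Of 23 in 1 kb windows, 3 were under 20% in all 3 libraries (background 70%), none was above 80% (background 4.82%) and 20 lay in neither class, and the median was 21.7%, 25.2% and 21.8%. Dazl, an RNA-binding protein that germ cells need, read 16.5%, 14.4% and 15.03% over 161 cytosines. Taf7l, an X-linked transcription factor subunit of spermatogenesis, read 16.6% ± 1.98. Tex19.1, which restrains retrotransposons, stood highest of those with at least 10 cytosines, at 41.5%, 48.9% and 35.4% over 18 cytosines. Dpep3, a membrane dipeptidase of the testis, read 31.1% ± 0.558. Without CCGG, 8 of 12 promoter sequences were under 20% (background 94.2%), with a median of 14.8%, 15.7% and 12.1% (14.2% ± 1.87), beside 7.59% over all protein-coding genes. Of these 12, 11 exceeded the 9.33% above which the highest 25% of protein-coding promoters lie. The lowest was Tdrkh, a Tudor protein of the piRNA pathway, at 7.91% ± 3.02.

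Some promoters of this list differed between libraries. Slc25a31 read 18.6%, 16.4% and 44.7% over 18 cytosines, and Asz1, a protein of the germ cell granule where piRNAs mature, read 11.6%, 37.2% and 21.9% over 22. In replicate 3, the 8 Slc25a31 cytosines between 152 and 53 bases before the start that were listed on the gene strand were each read 10 times and each read 80%. The same 8 cytosines had 16 to 18 reads each in replicate 1, with levels from 0 to 41.2%, and 14 each in replicate 2, with levels from 0 to 42.9%. The CpG 12 bases before the start, read 65 times on the gene strand in replicate 3, was at 6.15% there. In 1 kb windows, Mael, which acts in transposon silencing, read 18.7%, 37.2% and 20.04% over 51 cytosines, but 10.8%, 12.7% and 10.9% over the 14 cytosines of its promoter sequence outside CCGG.

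Genes that act in meiosis were called at shares near those of all protein-coding genes. Of 16 windows, 10 were under 20% (background 70%) and 1 above 80% (background 4.82%), with a median of 16.2% ± 1.10. All 10 promoter sequences without CCGG were under 20% (background 94.2%), with a median of 7.10% ± 0.578. Hfm1, a helicase of crossing over, was lowest at 8.94% ± 1.39, followed by Trip13, an ATPase that remodels chromosome axes, at 11.4% ± 1.32. Stra8, a retinoic acid target that starts meiosis, read 25.7%, 39.95% and 24.1% over 12 cytosines, and Iho1, a partner of the break-forming machinery, 27.4% ± 1.11. Over the 4 cytosines of its 300-base promoter sequence, none of them in CCGG, Iho1 read 3.54% ± 0.551. The piRNA and DNA methylation machinery, which silences transposons and sets the germline marks, had 12 of 15 windows under 20% (background 70%), with a median of 13.3% ± 0.201. Its 10 promoter sequences without CCGG had a median of 7.13% ± 0.578. Trim28, a corepressor that holds imprints, read 7.98% ± 1.24 and Tdrd9, a piRNA pathway helicase, 26.4% ± 4.02.

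Genes of sperm formation fell into both classes. Of 12 spermiogenesis windows 6 were under 20% (background 70%) and 3 above 80% (background 4.82%). Prm1, a protamine that replaces histones in sperm, read 88.8%, 92.1% and 93.1% over 22 cytosines within 1 kb of its start. Tssk1, a testis kinase of late spermatids, read 94.7%, 97.2% and 95.1%. Odf2 (12.5% ± 1.12), of the outer dense fibres of the tail, and Tssk6 (12.6% ± 1.56), another spermatid kinase, read low. The 6 spermiogenesis promoters measured without CCGG lay between 7.85% and 10.3%, and Prm1 and Tssk1 are not among them. Spermatogonial genes had 6 of 12 windows under 20% (background 70%) and 1 above 80% (background 4.82%; median 18.9% ± 0.360), from Utf1 (11.9% ± 0.607) and Id4 (11.9% ± 0.944), nuclear factors of undifferentiated spermatogonia, to Sohlh1 (39.7% ± 2.30), a factor of their differentiation. Of the 8 promoters measured without CCGG, 7 were under 20% (background 94.2%), with a median of 7.30% ± 1.13.

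Pluripotency genes were not uniformly unmethylated, and 5 of the 12 measured in windows had CpG-low promoters. Of 12 windows of pluripotency and primordial germ cell genes, 5 were under 20% (background 70%) and 1 above 80% (background 4.82%; median 21.1% ± 0.673). Sox2 read 12.7%, 11.2% and 10.8% over 183 cytosines and Klf4 12.2% ± 0.869. Pou5f1, the factor also known as Oct4, read 40.6%, 41.3% and 43.2% over 16 cytosines, and Zfp42, another marker of pluripotent cells, 28.02% ± 5.42. These genes were named as the lowest and highest of the list, so the gap between Sox2 and Pou5f1 is no separate result. Of the 6 promoters measured without CCGG, 5 were under 20% (background 94.2%), and Lin28b, an inhibitor of let-7 maturation, read 22.6% ± 3.07. Pou5f1 is not among the 6.

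The imprint regions had the parental pattern of the male germ line. Near H19, over 4 cytosines, the level was 98.5%, 96.5% and 98.5%. The region upstream of Meg3 read 97.8%, 97.4% and 95.3% over 19 cytosines, and that upstream of Rasgrf1 90.7%, 91.1% and 87.6% over 6. These 3 regions are known to be methylated in sperm, and all 3 libraries read high at each. Of regions known to be methylated in the egg, 11 had data and ranged from 11.1% ± 1.28 at Kcnq1ot1 to 30.2% ± 0.916 at Peg3, with a median of 19.12%, 20.9% and 20.4% (20.1% ± 0.929). Correcting each level for the mitochondrial share lowered that median to 12.1%. No egg-methylated region overlapped a sperm-methylated region in any library. The groups also differ in density: the median number of listed cytosines within 100 bp was 4 at H19, 10 at Meg3 and 6 at Rasgrf1. At the egg-methylated starts it ran from 10 at Peg3 to 44 at Plagl1. Over the genome, CpG-poor cytosines read 82.8% and gene starts 16.1%. Imprint status was not separated from density and position here. Snrpn read 21.1% ± 2.68, Plagl1 17.8% ± 1.27, Zrsr1 20.5% ± 2.58, the Airn start within Igf2r 15.1% ± 5.13, Slc38a4 28.6% ± 2.31, the Gnas exon 1A start 21.3% ± 1.93, Nnat 18.4% ± 2.58, Nap1l5 18.3% ± 0.934 and Mcts2 20.9% ± 3.70. Bounds of these regions are approximate, set from gene positions.

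The list of maternally methylated imprinted genes holds the starts of those regions and other promoters nearby. Over all 21 measured windows of the maternally methylated imprinted genes, 8 were under 20% in all libraries (background 70%) and none above 80%, with a median of 19.02% ± 0.945. Among windows of at least 10 cytosines, the lowest were Kcnq1ot1 and Inpp5f (12.0% ± 0.490), and the highest were Peg3 and Usp29, which share 1 window. Of 9 promoter sequences without CCGG, 8 were under 20% (background 94.2%), and their median was 10.6%, 10.9% and 11.05% (10.9% ± 0.201), above 7.59% in all 3 libraries. Of the 9, 7 exceeded 9.33%: Snrpn (15.04% ± 3.05), Commd1 (14.99% ± 8.21), Mcts2 (14.8% ± 4.27), Zrsr1 (12.2% ± 1.35), Igf2r (11.7% ± 2.99), Mkrn3 (10.7% ± 4.73) and Plagl1 (10.2% ± 0.982). The promoters of Gnas (5.66% ± 0.872) and Grb10 (6.36% ± 1.68) did not. Both this list, which also holds other promoters nearby, and the germline list include genes that somatic cells methylate. A share of other cells in the samples was not measured. The genes near paternally methylated imprints had 4 of 5 windows under 20% (background 70%), from Zdbf2 (9.35% ± 0.640) and Igf2 (12.8% ± 0.591), a fetal growth factor, to Rasgrf1 (15.2% ± 1.14) and Meg3 (32.1% ± 2.27). Their 3 promoter sequences without CCGG were all under 20% (background 94.2%), with a median of 8.44% ± 1.85.

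**Figure D4:**
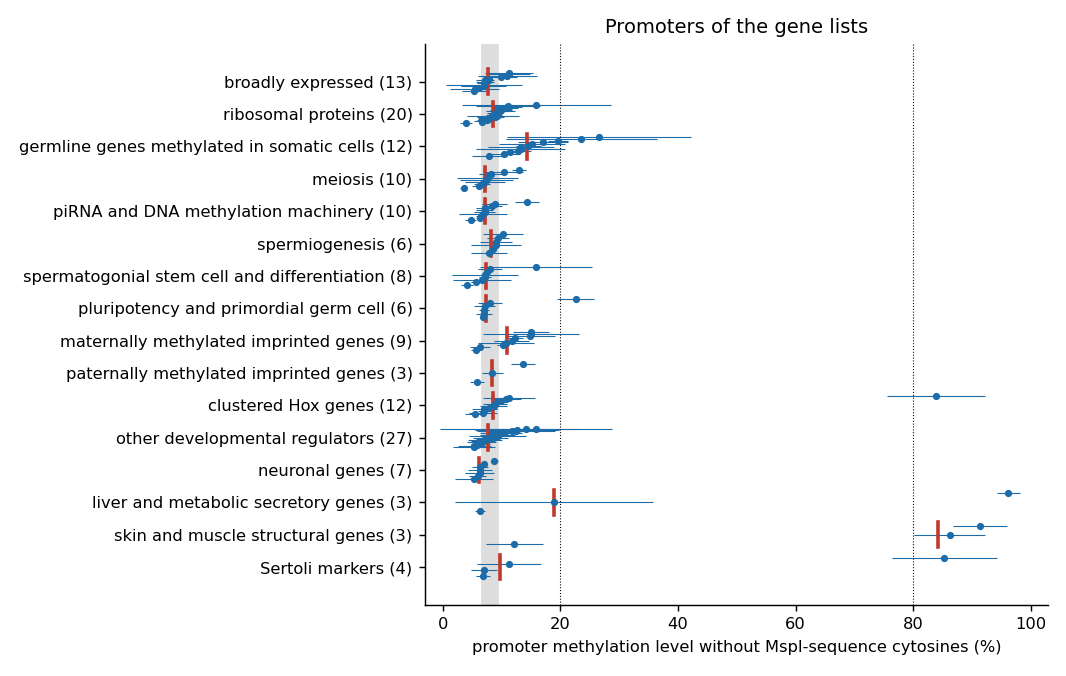
Methylation level (%) of 300-base promoter sequences without CCGG cytosines, for gene lists with at least 3 measured genes (number in brackets). Points are genes with the SD over 3 libraries, red bars are list medians, the grey band is the middle 50% of 7516 protein-coding promoters and dotted lines mark 20% and 80%. The germline genes have a median of 14.2%, to the right of the band that ends at 9.33%.

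Developmental regulators were called at shares near those of all protein-coding genes. Of 46 non-Hox regulators measured in windows, 36 were under 20% (background 70%) and none above 80% (background 4.82%; median 15.99% ± 0.346). Msx2, a homeobox factor of limb and skull, read 9.96% ± 1.05 and Cdx2, of the gut, 11.3% ± 1.57, while Neurod1 (26.5% ± 0.291) and Lhx9 (25.5% ± 1.73) were highest. Of 27 promoters without CCGG 24 were under 20% (background 94.2%), with a median of 7.70% ± 0.634. Of 20 Hox windows, 14 were under 20% (background 70%) and 1 above 80% (background 4.82%). Hoxa10 (11.1% ± 1.298) and Hoxd8 (11.4% ± 0.613) were lowest, and Hoxb4 read 21.0% ± 0.535. Hoxd4, whose sequence is shown above, read 90.3%, 83.0% and 92.0% over 18 cytosines around the start used here, a CpG-low one. Its neighbour Hoxd3 read 7.05% ± 2.08 without CCGG.

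Skin and muscle genes were methylated in 8 of 11 windows (background 4.82%), with 10 CpG-low promoters among the 11 and a median of 91.6%, 88.8% and 88.3%. Acta1 read 90.9% ± 2.04 and Ckm, the muscle creatine kinase, 87.8% ± 3.02, while Des (12.9% ± 0.952, also with a CpG-low promoter) and Krt18 (13.9% ± 2.13), of intermediate filaments, read low. Over 3 promoter sequences without CCGG 2 were above 80% (background 0.705%). Liver and metabolic genes had 2 of 8 windows under 20% (background 70%) and 2 above 80% (background 4.82%; median 30.7% ± 4.59). CpG-low promoters made up 6 of those 8. Pck1, which controls glucose synthesis, read 95.2% ± 1.38 and Pparg, a regulator of fat cells, 12.7% ± 0.842. Lep, the hormone leptin, read 38.3%, 8.87% and 9.43% over 12 promoter cytosines without CCGG, so that replicate 1 stood apart. Neuronal genes had 7 of 15 windows under 20% (background 70%) and 1 above 80% (background 4.82%; median 18.7% ± 0.743). Fkbp5, a chaperone of the glucocorticoid receptor, read 9.99% ± 0.405 and Syp, of synaptic vesicles, 29.2%, 43.7% and 32.5%. All 7 neuronal promoters without CCGG were under 20% (background 94.2%), with a median of 6.20% ± 1.42.

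Marker genes of other testis cells were few in these data. Of 6 Sertoli genes, 2 windows were under 20% (background 70%) and 1 above 80% (background 4.82%). Inhbb (10.3% ± 2.58) and Gdnf (13.9% ± 0.244), secreted factors of Sertoli cells, were lowest, and Cldn11, of the blood-testis barrier, read 23.9%, 24.0% and 33.7%. Of 4 Sertoli promoters without CCGG 3 were under 20% (background 94.2%). Of 5 Leydig and peritubular genes, Insl3 (48.7% ± 1.78), a hormone of Leydig cells, and Cyp11a1 (49.7% ± 1.56), which starts steroid synthesis, were highest among windows of at least 10 cytosines, and Pdgfra (5.62% ± 5.72) and Lhcgr (16.6% ± 0.807) lowest. The only promoter of that list without CCGG, Lhcgr, read 12.2% ± 4.32. Fcgr3, an antibody receptor, was the only immune gene measured (93.4% ± 2.78 over 4 cytosines). Promoter methylation of a marker does not measure its expression, so these values say nothing of how many such cells were present. No clustered protocadherin had a promoter sequence to measure.

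Gene families showed the same split. Of 944 olfactory receptor genes, 36 were measured, with a median of 89.0%, 92.2% and 90.5%, and 34 of the 36 had CpG-low promoters. Of 331 genes named Zfp, for zinc finger proteins, 264 were measured, with a median of 16.2% ± 0.296 and none above 80%. Keratins, mostly of CpG-low promoters, had a median of 63.3% ± 4.10 over 21 genes, beside 28.3% for all measured protein-coding windows with CpG-low promoters. Core histone genes read 15.5% ± 1.33 over 35.

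A few CpG-dense windows were above 80% in all 3 libraries, and the next highest lay between 20% and 80%. Among protein-coding windows of at least 20 cytosines with a median density of at least 20, Prm1 was highest. Gpr179, a receptor of retinal bipolar cells, followed at 90.8%, 87.5% and 91.0%, then Cela1, an elastase, at 87.7% ± 1.49, and Tmem184a, a membrane protein, at 76.7% ± 2.17. Predicted genes Gm38699 and Gm40862, both on chromosome 12, read 62.3% ± 9.42 and 59.3% ± 2.96 on average. Abhd16b read 71.7%, 50.1% and 64.7%. Of these CpG-dense windows, only those of Prm1, Gpr179 and Cela1 were above 80% in all 3 libraries. The promoters of Gm38699 and Gm40862 are CpG-rich, and those of the other genes named so far here are CpG-low. Some windows of genes with CpG-low promoters were unmethylated. Dync1i1, a dynein chain, read 6.59% ± 3.27 and Nalcn, a sodium leak channel, 6.78% ± 0.530 over 36 cytosines. The median density of those window cytosines was 12 for Dync1i1 and 33 for Nalcn, beside 6 and 3 CpGs in the 300-base promoter sequences. These levels are thus of the windows, not of the promoter sequences. Of 435 CpG-low promoter sequences measured without CCGG, 281 (64.6%) were under 20% in all 3 libraries (background 94.2%). The highest windows of any density were Gm13090 (97.4% ± 1.11), Acp4 (97.0% ± 0.520) and Rnf186 (96.0% ± 0.901), all with CpG-low promoters.

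Chromosomes differed little once density was held. Among autosomes the mean ran from 40.6% ± 0.129 on chromosome 19 to 45.8% ± 0.145 on chromosome 1, where CpG-dense cytosines made up 49.3% and 44.2%. Within CpG-poor DNA the autosomes lay between 81.9% and 84.0%, and within CpG-dense DNA between 13.9% and 15.2%. The X chromosome stood apart. Its mean was 48.6% ± 0.144 against 44.2% ± 0.140 for the autosomes, a difference of 4.38 ± 0.00985 points in the same direction in all libraries (exact two-sided paired permutation test, p = 0.25, the smallest possible), but only 26.9% of its cytosines were CpG-dense. In CpG-poor DNA the direction turned: X read 75.8%, 75.5% and 75.3% and the autosomes 83.3%, 83.0% and 82.9%, and X was below each of the 19 autosomes.

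CpG-poor X cytosines were lower at gene starts, inside genes and between genes, and other gene ends were not compared. At gene starts 906 such cytosines read 31.4% ± 0.161, against 50.2% ± 0.182 on autosomes. Inside genes the values were 81.8% ± 0.158 and 87.9% ± 0.207, and between genes 79.7% ± 0.405 and 83.7% ± 0.235. Intermediate cytosines, from 20% to 80%, made up 27.4% ± 0.331 of CpG-poor X cytosines and 14.3% ± 0.492 of autosomal ones. CpG-dense X cytosines read 13.5% ± 0.183 beside 14.5% ± 0.204. For promoter sequences without CCGG the median was 7.44%, 8.12% and 7.63% over 167 X genes and 7.58% ± 0.150 over 7347 autosomal genes, a difference within the spread of the X libraries. The Y chromosome, with 2908 listed cytosines, read 71.6% ± 0.637, and 46.9% ± 1.00 of them were intermediate. Alignment to repeated sequence on X and Y was not examined.

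**Figure D5:**
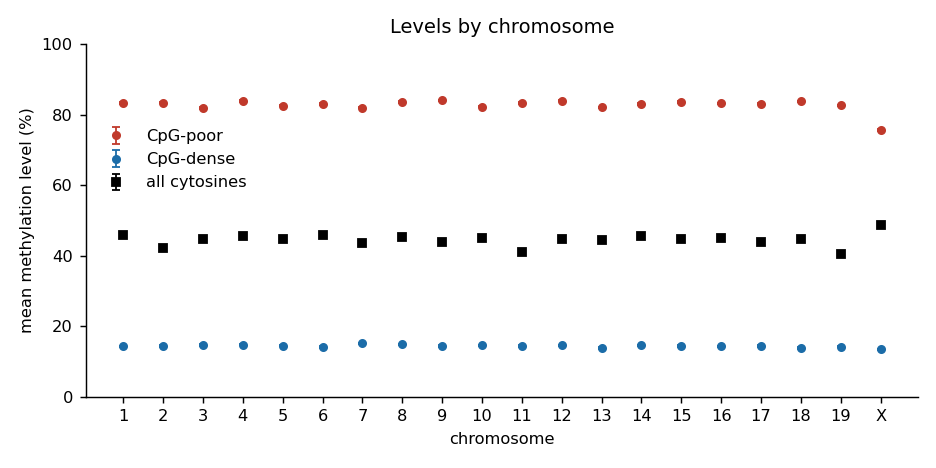
Mean methylation level (%) by chromosome, as the mean and SD over 3 libraries, for all cytosines (black squares), CpG-poor (red) and CpG-dense cytosines (blue). SDs are smaller than the symbols. Compared with the 19 autosomes, the X chromosome is higher over all cytosines (48.6%) and lower over CpG-poor ones (75.6%).

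Over all autosomes the chromosome ends differed little from the rest, while single chromosomes varied widely when density was not held. The last 5 Mb read 43.1% ± 0.113 against 44.3% ± 0.141 elsewhere, lower by 1.11 ± 0.0286 points in every library, and the first 8 Mb, next to the centromere, were lower by 0.246 ± 0.0501 points (exact two-sided paired permutation tests, p = 0.25 each, the smallest possible). In CpG-dense DNA both differences had the opposite sign, at 0.0874 and 1.15 points. Single chromosomes went either way over all cytosines. The last 5 Mb were lower on 10 of 19 autosomes and higher on 9, from -8.64 to 25.3 points. The first 8 Mb ranged from -5.12 to 22.7 points. In CpG-poor DNA alone these ranges were -8.40 to 4.25 and -9.39 to 3.52 points. In CpG-dense DNA alone they were -1.58 to 16.5 and -2.02 to 21.9 points. On chromosomes 3 and 9 the CpG-dense cytosines of the first 8 Mb were higher than the rest of the chromosome by 20.7 and 21.9 points, over 356 and 454 cytosines.

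At a scale of 1 Mb, CpG-poor DNA held a few regions of low methylation. Of 1891 autosomal bins with at least 100 CpG-poor cytosines, the middle 50% lay between 79.9% and 86.7%, and the median SD over libraries was 0.502. The lowest bin, at 21 to 22 Mb of chromosome 13, holds histone, olfactory receptor and zinc finger genes and read 53.0%, 54.5% and 53.3%. The bin with Robo1 and Robo2, receptors of axon guidance, followed at 60.2% ± 0.653, and then the Hoxa cluster at 60.3% ± 0.204. Bins of the clustered protocadherins (63.7% ± 0.351), of Hoxc genes (65.3% ± 0.425), of the Hoxd cluster (65.7% ± 0.667) and of vomeronasal receptors on chromosome 7 (64.6% ± 0.289) were also among the 10 lowest. Away from gene starts these bins stayed low beside an autosomal mean of 85.2% ± 0.213: the chromosome 13 bin read 61.1% over 144 cytosines, Hoxa 65.5% over 181 and Hoxd 66.6% over 202. The highest bins held Plcb1 and Plcb4, phospholipases of neuronal signalling (93.9% ± 0.189), and Rbfox1, a neuronal splicing factor (93.8% ± 0.644).

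The libraries differed by a few points. They listed between 2420308 and 2638404 cytosines each, with a median coverage of 46 to 50 reads, and correlated pairwise at 0.967 to 0.969 over cytosines, as a description. Over 169017 tiles of 500 bp the median SD among libraries was 2.07 points. Tiles between 60% and 80% spread most, with a median SD of 4.01, and those above 95% least, with 1.48. Binomial counting of the reads alone would give a median SD of 1.57 over all tiles, and 3.05 and 1.22 in these 2 classes. Against counting, tiles from 10% to 20% spread most, with a ratio of 1.74. In several of the protein-coding windows of at least 20 cytosines that spread most, 1 library stood apart: Ddx56, an RNA helicase, read 13.7%, 49.5% and 14.4%, Prrt3 14.6%, 32.3% and 14.3%, Parp11 12.7%, 13.3% and 29.9%, and Ccdc85a 10.999%, 25.7% and 8.77%. Lrrc63 and Lcp1, which share a window, read 16.7%, 19.7% and 34.1%. Over all 961713 CpGs listed on both strands, the strands differed by 14.99 ± 0.278 points on average.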

How the data were processed

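Genomic DNA of male germ cells (DNeasy kit) went into Zymo-Seq RRBS libraries, per the labels' protocols. Trim Galore 0.5.0, Bismark 0.20.0 and the build GRCm38 are named in the submitters' processing notes. Per the file headers, the tables the authors deposited hold 1 line per cytosine with its position, strand, read count (coverage) and the percent of those reads with C and with T. No listed cytosine has under 10 reads. Handling of duplicates and the conversion rate are not given in the sources used here, and coverage counts reads, not independent molecules.

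Cytosines listed in all 3 libraries were kept, except the 3406 with coverage above the top 0.1% limit in some library. The 37 mitochondrial cytosines were described without that limit. Strands were kept apart. Levels are means over cytosines per library, then the mean ± SD over 3 libraries. Gene starts and promoter sequences are those of RefSeq, GRCm38.p6. Of 259861 listed cytosines inside them, 259838 fell on a CG of the sequence. A gene's window is 1 kb either side of the start with most listed cytosines, with at least 3. Exons and UTRs were not separated. The 6 within-library contrasts, and the CCGG contrast, were tested by exact two-sided paired permutation (sign flips), which cannot give less than 0.25. Levels and counts were tested on simulated reads. The analysis used Python 3.11.15 with numpy 2.4.6 and pandas 2.3.3.

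The members, the 19 gene lists and the tests were chosen with earlier results of these data known. Named genes are, per list, the 2 lowest and 2 highest windows of at least 10 cytosines, and over all protein-coding windows of at least 20 cytosines the 10 highest, the 10 of largest SD and the 10 highest CpG-dense ones. Other genes, all CCGG results and the bins were chosen after their values were seen.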

Additional observations from a re-analysis of the deposited data

How the results depend on the processing

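Alternatives were a coverage minimum of 20 reads, reads summed over cytosines, a correction by the mitochondrial share, other thresholds and windows, single density classes and leaving out each library. Of the values recomputed under alternatives chosen at the outset, 66 were labelled unchanged, 13 moved and 4 reversed. Unchanged means the same sign for a difference and a shift within the SD between libraries for a level. For a count it means staying within a fixed ratio of the main value, which is no measure of the spread between libraries. The count of protein-coding windows under 20%, which rose from 8121 to as many as 9880, is labelled unchanged on that ground. The global level of 44.3% became 40.7% at a coverage minimum of 20, 41.1% with reads summed, 38.7% after the mitochondrial correction and 45.4% over all cytosines that each library lists. The median of egg-methylated imprint regions became 18.8%, 16.98% and 12.1% under the first 3 of these. The spread among tiles (2.07) became 1.98 at a coverage minimum of 20, 2.31 after the correction, 2.01 over tiles of 1000 bp and 1.64 to 1.68 with a library left out. In CpG-poor DNA the X chromosome was 7.53 points below the autosomes (-7.53). In CpG-dense DNA the X chromosome stood at -0.981, the last 5 Mb at 0.0874 and the centromere-near 8 Mb at 1.15. The cause of these changes was not tested. Among alternatives added after the data were seen, leaving out CCGG moved the median promoter level from 14.01% to 7.59%, or 7.49% with a coverage minimum of 20. Also added, gene interiors in CpG-poor DNA were 4.39 points above intergenic DNA. The CCGG difference of 31.0 points was 22.2 at a minimum of 20 reads, 14.8 at 80, 20.9 with reads summed and 34.2 after the correction. Protein-coding windows under 20% numbered 8121 of 11599, 9250 of 11329 at a minimum of 20 reads, 9837 with reads summed and 9880 after the correction, which lowered the median window from 15.3% to 6.76%. With 3 libraries of 1 group no contrast could reach a p under 0.25. No paired analysis was possible because the replicate numbers pair these libraries only with those of another group, not used here. The contrasts are paired within a library.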
